A study of Homo sapiens with 6 samples.

Results

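The neuronal pentraxin genes NPTX1, NPTX2 and NPTXR and the leucine-rich repeat and fibronectin type III genes LRFN1, LRFN2, LRFN3, LRFN4 and LRFN5 form 2 families of synaptic genes, 8 genes among the 62348 identifiers in the count tables. NPTX1 and LRFN5 were chosen by their high counts in the libraries labelled as knockout (KO-labelled), and the other 6 were included as members of the same families, whatever their counts. Values of NPTX1 and LRFN5 are therefore given as a description without a test, whereas the relatives that passed the filter on low counts were tested. All 8 genes were found by symbol, and 7 passed the filter on low counts. LRFN2 did not.

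Neuronal pentraxins bind AMPA-type glutamate receptors outside the cell and gather them at excitatory synapses. NPTX1 and NPTX2 are secreted, and NPTXR is anchored in the membrane until a protease releases it. The LRFN proteins, also called SALMs, are single-pass adhesion proteins of the synapse. LRFN1, LRFN2 and LRFN4 end in a motif that binds the scaffold PSD-95, LRFN3 and LRFN5 lack it, and LRFN4 and LRFN5 bind presynaptic receptor phosphatases of the LAR type.

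Poly(A)-selected RNA was sequenced from HEK-293T, a human embryonic kidney line, in 3 libraries that carried a non-targeting guide RNA (genotype WT) and 3 libraries that carried a guide RNA against C17orf80 (genotype C17orf80 knockout). C17orf80 encodes a protein of mitochondrial nucleoids, and the series asked how its depletion affects mitochondrial transcription. All cells grew in DMEM with fetal bovine serum. Knockout cells were made with CRISPR/Cas9 and selected with puromycin as monoclonal cells. The sources used here do not give the number of clones, and clone differences and an effect of the guide cannot be told apart. Nothing in the labels says that replicates were separate cultures, so p-values here reflect library-to-library spread alone, possibly technical.

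C17orf80 itself was not lost at the RNA level. Counts were 397, 451 and 476 in WT against 763, 699 and 698 in the libraries labelled as knockout (log2 fold change 0.78 ± 0.17 SE, edgeR adjusted p = 0.0232). RNA counts do not show whether the protein was lost, so the groups are named by their labels. Gene counts per library ranged from 14982340 to 16278091. KO-labelled replicate 1 stood apart: its scaling factor was 0.851 against 1.03 to 1.04 in the other 5 libraries, 15.9% of its reads lay in no annotated gene against 8.75% to 10.8%, and its log2 CPM correlated with its 2 partners at 0.932 and 0.945 against 0.987 between those partners. CPM is the count scaled to library depth with this factor (TMM), and log2 fold changes are KO-labelled over WT with their SE. Of 7 genes fixed as a check of the line all were detected and 5 did not pass edgeR, among them vimentin (VIM) at 208 ± 6.35 CPM (SD, n = 3) in WT and 231 ± 49.3 CPM in KO-labelled libraries, while CDH2 rose (log2 fold change 1.28 ± 0.16) and NEFL fell (-1.48 ± 0.17). Of 10 neuron markers 5 were tested and 1 rose, GAD1 (0.82 ± 0.20, edgeR adjusted p = 0.0338). SYP averaged 15.7 ± 1.86 CPM in WT and 12.8 ± 4.57 CPM in KO-labelled libraries, SNAP25 and MAP2 had 0 to 6 counts in each library, and SLC17A6 had none. The summed level of the 10 was 35.8 to 42.5 CPM in WT and 29.1 to 44.8 CPM in KO-labelled libraries, and its part in the results was not tested. Summed levels in WT and in KO-labelled libraries were 5.72 to 7.29 and 4.61 to 6.29 CPM for glial markers, 43.1 to 49.0 and 24.3 to 32.6 CPM for fibroblast markers, and at most 2.44 CPM in any library for blood, endothelial and hepatocyte markers. MOG, COL1A2, PTPRC, HBB, CD3E, CDH5 and TTR had no count in any library. Transcript lengths were not used, so levels are compared between libraries and not between genes.

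NPTX1 (ENSG00000171246, chromosome 17, positions 80466834 to 80476607 on GRCh38) was the secreted pentraxin with a high level in KO-labelled libraries. Its counts were 142, 132 and 154 in WT libraries 1 to 3, against 2946, 4227 and 3919 in KO-labelled libraries 1 to 3. Scaled to depth, this was 9.23, 7.84 and 9.44 CPM against 218, 257 and 236 CPM. The gene was thus expressed in every WT library, and its 2 groups were far apart. The means were 8.84 ± 0.869 and 237 ± 19.4 CPM (SD, n = 3), a 26.8-fold ratio (log2 fold change 4.74 ± 0.17 SE). In bulk RNA, more cells that express a gene and more RNA per cell cannot be told apart. KO-labelled replicate 1 lay close to its 2 partners for this gene, and the log2 fold change was 4.81 without it.

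LRFN5 (ENSG00000165379, chromosome 14, positions 41606876 to 41904549 on GRCh38), an adhesion protein that pairs with LAR-type phosphatases across the synapse, was detected in the 3 KO-labelled libraries alone. None of the 3 WT libraries held a count. KO-labelled replicates 1 to 3 held 248, 184 and 168 counts, or 18.3, 11.2 and 10.1 CPM, with a mean of 13.2 ± 4.48 CPM (SD, n = 3). Replicate 1 was the highest of the 3, and the groups did not overlap. The span of LRFN5 also holds a pseudogene, FKBP1BP1, on a strand that counting may not have kept apart. With 3 counts over the WT group set as the limit that a count of 0 allows (0.0618 CPM), LRFN5 was at least 208-fold higher, a bound that covers counting error only. With only 2 WT libraries in the limit the bound was 135-fold to 141-fold.

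The 250 bases before the RefSeq start of LRFN5 are shown because the gene had no count in WT, beside those of LRFN3 and LRFN4, relatives that were expressed in both groups. Sequences are from RefSeq on GRCh38.p14, 5′ to 3′ on the plus strand, at chr14:41606626-41606875 for LRFN5, chr19:35936124-35936373 for LRFN3 and chr11:66856814-66857063 for LRFN4. Capitals mark CpG dinucleotides, the sites at which DNA methylation occurs.
LRFN5: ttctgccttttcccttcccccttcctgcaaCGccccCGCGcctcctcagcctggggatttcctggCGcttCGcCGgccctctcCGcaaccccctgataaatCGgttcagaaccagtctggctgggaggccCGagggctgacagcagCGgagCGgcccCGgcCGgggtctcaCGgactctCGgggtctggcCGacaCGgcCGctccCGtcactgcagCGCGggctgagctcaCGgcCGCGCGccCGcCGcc
LRFN3: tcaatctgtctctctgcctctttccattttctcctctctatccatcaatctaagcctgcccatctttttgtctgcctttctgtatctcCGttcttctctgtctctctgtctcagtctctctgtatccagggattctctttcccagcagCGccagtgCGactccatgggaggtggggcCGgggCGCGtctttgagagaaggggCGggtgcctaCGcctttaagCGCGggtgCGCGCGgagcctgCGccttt
LRFN4: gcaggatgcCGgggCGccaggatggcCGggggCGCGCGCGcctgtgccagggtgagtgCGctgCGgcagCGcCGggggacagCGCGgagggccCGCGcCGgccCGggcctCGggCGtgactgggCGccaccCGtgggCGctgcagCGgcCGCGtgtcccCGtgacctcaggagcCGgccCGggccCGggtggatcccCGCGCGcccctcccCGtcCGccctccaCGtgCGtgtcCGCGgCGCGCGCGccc

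The LRFN5 window held 27 CpG dinucleotides, between the 14 of LRFN3 and the 42 of LRFN4. LRFN1 had 37 and NPTX2 had 34, and the median over 35116 promoter windows of the same length was 11. At least as many CpGs as in LRFN5 were found in 17.7% of all windows. GC content was 71.6% for LRFN5, 56.0% for LRFN3 and 83.2% for LRFN4. LRFN5, with no count in WT, thus had fewer CpGs in its window than LRFN1, LRFN4 and NPTX2 and more than LRFN3, all 4 expressed in WT. The TATA box TATAAA, read on both strands, was in none of the 5 member windows and in 10.7% of all windows. The letters CCAAT, read on both strands, occurred once in NPTX2 and in no other of the 5, against 32% of all windows. The GC box GGGCGG, which contains a CpG, occurred on either strand 8 times in LRFN1, 5 times in NPTX2, once each in LRFN3 and LRFN4 and not in LRFN5, against 42.6% of windows with a match. NPTX1, NPTXR and LRFN2 were among the 8 genes without a match in the promoter table.

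**Figure D1:**
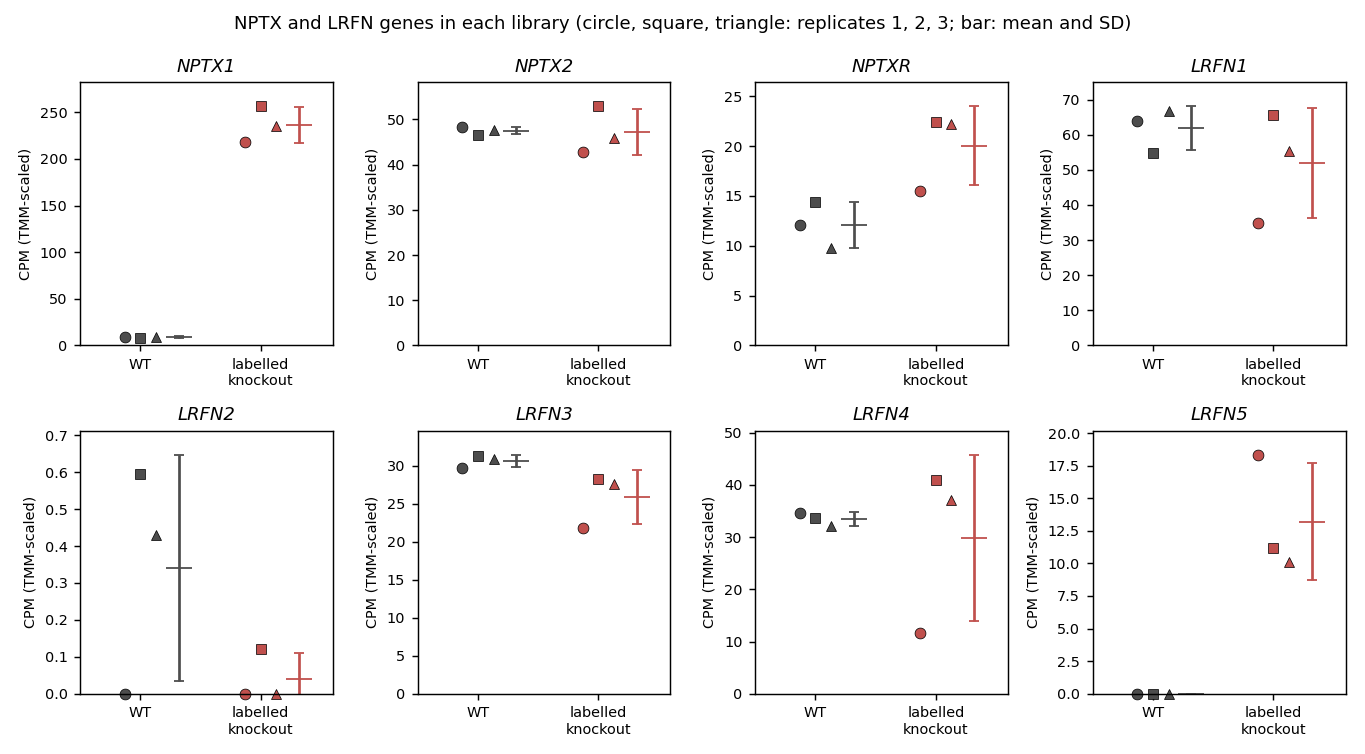
Level of each of the 8 genes in CPM (vertical axes from 0, a scale for each gene) in the 3 WT libraries and the 3 KO-labelled libraries. Points are libraries and bars the mean with SD. NPTX1 lies at 7.84 to 9.44 CPM in WT and 218 to 257 CPM in KO-labelled libraries, and LRFN5 at 0 and at 10.1 to 18.3 CPM. None of the 5 tested relatives passed edgeR.

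The relatives did not share a rise of this size. Of the 6 relatives, 5 were tested and 0 passed edgeR after adjustment over 17452 genes, against a background of 8.64% of tested genes higher and 6.5% lower. Without adjustment, edgeR gave a p under 0.05 for 1 of the 5, NPTXR. DESeq2 called 1 after adjustment, again NPTXR, and limma-voom called 0. Because NPTX1 and LRFN5 were chosen by this same contrast, the difference between them and their relatives was not tested.

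NPTX2, the activity-induced secreted pentraxin also known as Narp (chromosome 7, positions 98617285 to 98629869), showed no called difference. It stood at 48.3, 46.6 and 47.7 CPM in WT replicates 1 to 3 and at 42.9, 52.9 and 46.0 CPM in KO-labelled replicates 1 to 3. The 2 groups overlapped, with means of 47.5 ± 0.852 and 47.3 ± 5.14 CPM (SD, n = 3). The log2 fold change was -0.0078 ± 0.14 (edgeR adjusted p = 0.974).

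NPTXR, the membrane-anchored pentraxin (chromosome 22, positions 38818452 to 38844028), had a higher mean that missed the threshold. It stood at 12.1, 14.4 and 9.80 CPM in WT replicates 1 to 3 and at 15.5, 22.4 and 22.2 CPM in KO-labelled replicates 1 to 3. All 3 KO-labelled values were over the WT values, with KO-labelled replicate 1 close to the highest WT library. The log2 fold change was 0.73 ± 0.22 (edgeR adjusted p = 0.0694; DESeq2 adjusted p = 0.0499). Without KO-labelled replicate 1 NPTXR passed edgeR, with a log2 fold change of 0.89 (adjusted p = 1.29e-05). In that fit 22.3% of tested genes were called higher and 21.7% lower, so calls were common in it. With any other single library left out, the edgeR adjusted p ranged from 0.122 to 0.244.

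LRFN1 (chromosome 19, positions 39306566 to 39320863), a PSD-95-binding member, stood at 64.0, 54.9 and 66.8 CPM in WT replicates 1 to 3 and at 34.8, 65.5 and 55.4 CPM in KO-labelled replicates 1 to 3. KO-labelled replicate 1 was low, whereas its 2 partners lay inside the WT range (log2 fold change -0.25 ± 0.24, edgeR adjusted p = 0.483). LRFN4 (chromosome 11, positions 66857064 to 66860475), which binds both PSD-95 and LAR-type phosphatases, showed the same outlying library more strongly. It stood at 34.7, 33.6 and 32 CPM in WT and at 11.6, 40.9 and 37.1 CPM in KO-labelled replicates 1 to 3. The log2 fold change was -0.16 ± 0.41 (edgeR adjusted p = 0.810) and turned to 0.23 without KO-labelled replicate 1 (edgeR adjusted p = 0.0501). The span of LRFN4 overlaps that of PC, the pyruvate carboxylase gene, and the sources used here do not state counting by strand. Its counts are uncertain where exons meet.

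LRFN3 (chromosome 19, positions 35936374 to 35946624), which lacks the PSD-95 motif, stood at 29.7, 31.2 and 30.9 CPM in WT replicates 1 to 3 and at 21.8, 28.2 and 27.5 CPM in KO-labelled replicates 1 to 3. All 3 KO-labelled values were under the WT values, but the difference did not pass (log2 fold change -0.24 ± 0.15, edgeR adjusted p = 0.305; -0.13 without KO-labelled replicate 1). LRFN2 (chromosome 6, positions 40391591 to 40587364) was near the limit of detection, with 0, 10 and 7 counts in WT and 0, 2 and 0 counts in KO-labelled libraries. The summed counts of 17 and 2 gave a WT over KO-labelled ratio of 8.17 (exact Clopper-Pearson 95% interval 1.94 to 72.9), which covers counting error only. WT replicate 1 had no count either, so the groups overlapped. LRFN1 and LRFN3 lie 3.36 Mb apart on chromosome 19, and the other 6 genes are on separate chromosomes.

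Ratios of counts between relatives within one library do not depend on how libraries are scaled. NPTX1 to NPTX2 was 0.191, 0.168 and 0.198 in WT replicates 1 to 3 and 5.08, 4.85 and 5.12 in KO-labelled replicates 1 to 3. KO-labelled replicate 1, which stood apart over all genes, was between its 2 partners in this ratio. LRFN5 to LRFN3 was 0 in WT and 0.841, 0.396 and 0.367 in KO-labelled libraries, with replicate 1 highest. NPTXR to NPTX2, a ratio of genes not chosen for their change, was 0.25, 0.310 and 0.206 in WT and 0.360, 0.423 and 0.484 in KO-labelled libraries. Its groups did not overlap (two-sided exact permutation p = 0.1, the smallest that 3 against 3 libraries allow; adjusted p = 0.3 over 3 ratios). LRFN4 to LRFN3 (1.09 ± 0.0683 in WT and 1.11 ± 0.503) and LRFN1 to LRFN3 (2.03 ± 0.231 and 1.97 ± 0.365; SD, n = 3) overlapped between groups, with exact permutation p of 1 and 0.8.

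**Figure D2:**
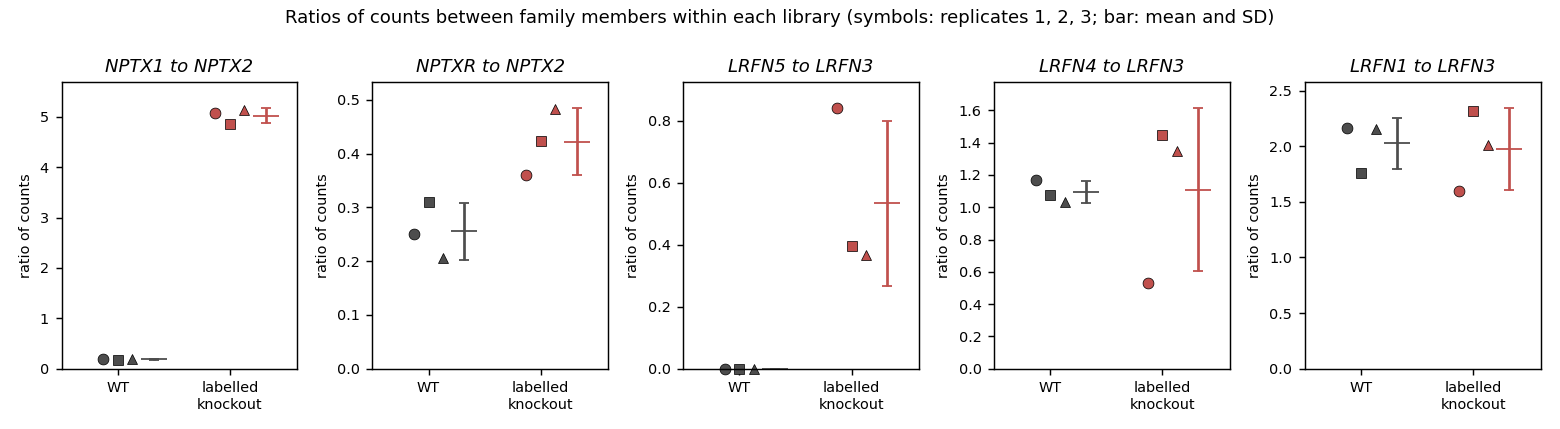
Ratio of counts between 2 family members within each library (vertical axes from 0), by group, with mean and SD. NPTX1 to NPTX2 lies between 4.85 and 5.12 in KO-labelled libraries and between 0.168 and 0.198 in WT, whereas LRFN4 to LRFN3 and LRFN1 to LRFN3 overlap between groups.

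The genes on either side of NPTX1 and LRFN5 were examined next, taking the 3 nearest tested genes on each side. One of these 12 neighbours, LRFN5-DT, had no count in WT and entered the test only through the KO-labelled libraries, so it is described without its test. Of the other 11, 5 rose and 6 did not pass edgeR, against the background of 8.64% higher. Of the 36 neighbours of the other 6 members, 2 rose, SYT12 and KDM2A, both beside LRFN4. Another 3 fell, APOBEC3B and APOBEC3C beside NPTXR and APLP1 beside LRFN3. These genes were named after their values were seen. SYT12 had 3, 5 and 10 counts in WT against 16, 29 and 24, and entered the test only through the KO-labelled libraries. Its rise is counted among the 2 but is otherwise a description. Without KO-labelled replicate 1, where 22.3% of all tested genes were called higher and 21.7% lower, 6 of the 11 rose, ENDOV among them, and FBXO33 fell, while 3 of the 36 rose and 13 fell. With 1 WT library left out, where 2.2% to 2.35% of all tested genes were called higher, edgeR called 0 of the 11, and 5 or 6 had an unadjusted p under 0.05. Without KO-labelled replicate 3, RNF213 and RPTOR were called, against 4.29% of all tested genes higher.

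Beside LRFN5, the noncoding RNA LRFN5-DT was detected in the 3 KO-labelled libraries alone. No WT library held a count of it, against 79, 53 and 59 counts in KO-labelled replicates 1 to 3, or 5.84, 3.22 and 3.55 CPM. It was at least 66.3-fold higher by the same limit of 3 counts, which covers counting error only. LRFN5-DT counts were 0.319, 0.288 and 0.351 of LRFN5 counts in KO-labelled libraries. The RefSeq spans of the 2 genes lie 13.5 kb apart, but the sources used here do not give the spans used for counting, and reads shared between them cannot be told apart.

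Farther out, LINC02315 before LRFN5 rose by 1.03 ± 0.27 on the log2 scale (edgeR adjusted p = 0.0441). After LRFN5 the nearest tested gene, C14orf28, lay 2993 kb away, end to start, and did not pass (0.07 ± 0.20). The 2 genes beyond it rose, KLHL28 by 0.93 ± 0.24 (adjusted p = 0.0426) and TOGARAM1, a ciliary microtubule protein gene, by 0.87 ± 0.20 (adjusted p = 0.0272). FBXO33 on the other side did not pass (-0.14 ± 0.17).

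Around NPTX1 the 2 neighbours that rose had smaller fold changes than NPTX1. RNF213, a large ubiquitin ligase gene, averaged 155 ± 11.8 CPM in WT libraries and 381 ± 137 CPM in KO-labelled libraries (log2 fold change 1.30 ± 0.25, edgeR adjusted p = 0.0165). RPTOR, the raptor subunit of mTOR complex 1, was at 71.8 ± 2.39 and 135 ± 23.2 CPM (0.92 ± 0.16, adjusted p = 0.0129). ENDOV, the nearest by midpoint at 45.1 kb, was at 18.5 ± 0.645 and 19.2 ± 6.39 CPM (0.06 ± 0.26, adjusted p = 0.891). RNF213-AS1, CHMP6 and BAIAP2-DT did not pass either. The spans of RNF213-AS1 and RNF213 overlap, so the counts of both are uncertain without strand. C17orf80, the gene that the guide targets, lies 7.22 Mb from NPTX1 on the same chromosome.

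**Figure D3:**
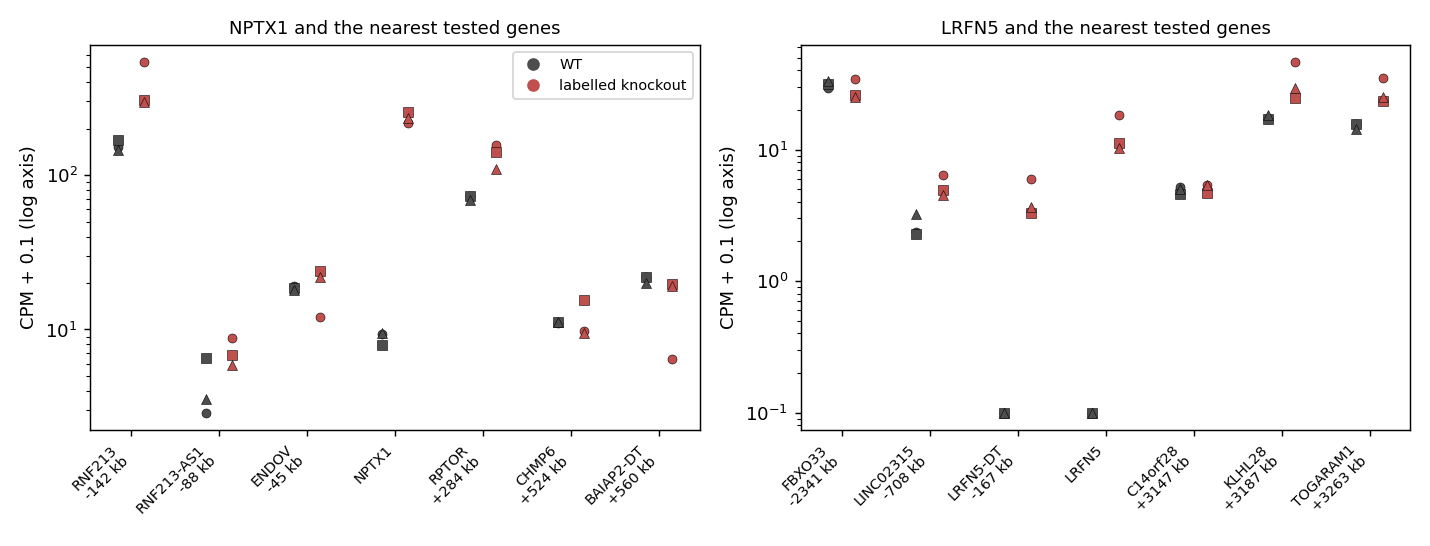
Level of NPTX1 (left) and LRFN5 (right) and of the 3 nearest tested genes on each side, as CPM plus 0.1 on a log axis, with 1 point per library and distances between gene midpoints below. LRFN5 and LRFN5-DT have no count in WT, and RNF213 and RPTOR are higher in KO-labelled libraries than in WT by far less than NPTX1.

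Genes whose proteins work with pentraxins and LRFN proteins were read from 10 lists with 129 genes, of which 90 were tested and 22 had no count in any library. In these lists 6 genes rose and 21 fell. That is 6.67% higher and 23.3% lower, beside 8.64% and 6.5% of all tested genes. The median log2 fold change of the 90 was -0.36, beside 0.0055 over all tested genes. Without KO-labelled replicate 1 14 of 91 rose and 41 fell (15.4% and 45.1%, beside 22.3% and 21.7%). With any 1 WT library left out 1 rose and 10 fell, where 2.2% to 2.35% of all tested genes were called higher and 1.33% to 1.35% lower. Without KO-labelled replicate 3, 3 rose and 11 fell, where the shares of all tested genes were 4.29% and 2.19%. Of the 21 that fell, 4 (CACNG4, CACNG7, CBLN1 and DLGAP3) had under 10 counts in each KO-labelled library, so they entered the test through WT. With any 1 of the 6 libraries left out, SLITRK3 was called higher and 8 genes were called lower, among them CACNG7, DLGAP3, ELFN2, MMP2, NRXN3, SHANK1 and SV2A.

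The AMPA receptors that pentraxins gather were nearly absent. GRIA1 and GRIA3 had no count in any library, GRIA2 was too low to be tested, and GRIA4 averaged 0.498 ± 0.143 CPM in WT and 1.04 ± 0.804 CPM in KO-labelled libraries (edgeR adjusted p = 0.366). Of 11 tested AMPA auxiliary and trafficking genes 3 fell and 8 did not pass. CACNG7, a TARP subunit, averaged 5.41 ± 0.571 CPM in WT libraries and 0.340 ± 0.183 CPM in KO-labelled libraries (log2 fold change -3.95 ± 0.40). It entered the test through WT, so its fall is a description. The related CACNG4, in the same position, fell by 3.37 ± 0.81 on the log2 scale. Its log2 fold change was -5.48 without KO-labelled replicate 2, which held 7 of its 8 KO-labelled counts. Its call was lost with any 1 WT library left out (edgeR adjusted p from 0.10 to 0.139) and without KO-labelled replicate 3 (adjusted p = 0.101). PICK1, a PDZ protein that controls AMPA receptor trafficking, fell by 0.90 ± 0.20. Of 7 tested NMDA and delta receptor subunits 1 fell, GRIN2D (-1.01 ± 0.25). The PICK1 and GRIN2D calls were lost with any 1 WT library left out (edgeR adjusted p from 0.0895 to 0.138).

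Among postsynaptic scaffolds, the proteins to which LRFN1, LRFN2 and LRFN4 attach, 5 of 13 fell and 8 did not pass. SHANK1 stood at 11.1, 8.49 and 8.82 CPM in WT and at 1.55, 1.70 and 1.26 CPM in KO-labelled replicates 1 to 3 (log2 fold change -2.65 ± 0.25, edgeR adjusted p = 0.00113). DLGAP3, which links PSD-95 to SHANK, fell by 3.70 ± 0.35 and DLGAP4 by 0.68 ± 0.13. DLGAP3 entered the test through WT, so its fall is a description. The DLGAP4 call was lost with any 1 WT library left out (edgeR adjusted p from 0.0822 to 0.0957). SHANK2 also fell. DLG4, which encodes PSD-95, did not pass, at 21.3 ± 1.27 CPM in WT and 19.1 ± 6.88 CPM.

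Of 7 tested LAR-type phosphatases and liprins, the presynaptic side of LRFN4 and LRFN5 contacts, 1 rose, 1 fell and 5 did not pass. PTPRD, one of the phosphatases, averaged 22.8 ± 1.64 CPM in WT libraries and 45.1 ± 12.7 CPM in KO-labelled libraries (log2 fold change 0.98 ± 0.22, edgeR adjusted p = 0.0258). The liprin gene PPFIA4 fell by 1.20 ± 0.30. The PTPRD and PPFIA4 calls were lost with any 1 WT library left out (edgeR adjusted p from 0.0966 to 0.131). PTPRS was at 165 ± 5.01 and 160 ± 11.4 CPM and PTPRF at 597 ± 28.3 and 453 ± 32.9 CPM, and neither passed (adjusted p = 0.840 and 0.0755).

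Other synaptic adhesion genes moved in both directions. Of 10 tested neurexin, neuroligin, cerebellin and LRRTM genes 1 rose and 2 fell. LRRTM4, a postsynaptic leucine-rich repeat protein, rose by 2.02 ± 0.39, NRXN3 fell by 1.80 ± 0.25, and CBLN1, a secreted bridge between neurexins and delta receptors, fell from 1.55 ± 0.288 CPM to 0.0405 ± 0.0701 CPM (log2 fold change -4.95 ± 0.79, and -7.62 without KO-labelled replicate 2, which held its 2 KO-labelled counts). CBLN1 entered the test through WT, so its fall is a description, and its call was lost without WT replicate 1 (edgeR adjusted p = 0.0568). Of 17 tested genes in the list of other leucine-rich repeat adhesion proteins, which also holds IL1RAP without such repeats, 2 rose and 3 fell. SLITRK3 stood at 5.66, 6.83 and 4.72 CPM in WT and at 22.6, 15.5 and 18.8 CPM in KO-labelled replicates 1 to 3 (log2 fold change 1.72 ± 0.23, edgeR adjusted p = 0.00426), and AMIGO2 rose by 1.24 ± 0.23. ELFN2 fell by 2.63 ± 0.19, LRRC4B by 1.47 ± 0.23 and AMIGO1 by 0.89 ± 0.19.

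Of 16 tested presynaptic vesicle and release genes 1 rose and 5 fell. SV2A, a synaptic vesicle glycoprotein, stood at 29.7, 30.3 and 28.9 CPM in WT and at 0.0740, 0.789 and 1.02 CPM in KO-labelled replicates 1 to 3 (log2 fold change -5.49 ± 0.50, edgeR adjusted p = 0.00105). The synapsin gene SYN3 fell by 1.32 ± 0.20, CPLX1 and SYT11 also fell, whereas SYN2 rose by 0.73 ± 0.18. Of 7 genes of the wider pentraxin-domain family 4 were tested and 1 rose, ADGRG6, an adhesion receptor (1.25 ± 0.28). The ADGRG6 call was lost with any 1 WT library left out (edgeR adjusted p from 0.0923 to 0.131). Of 4 tested proteases (ADAM10, ADAM17, BACE1 and MMP2) 1 fell, MMP2 (-2.63 ± 0.15). ADAM17, which can release NPTXR from the membrane, did not pass, at 47.7 ± 0.916 CPM in WT and 60.3 ± 26.7 CPM.

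**Figure D4:**
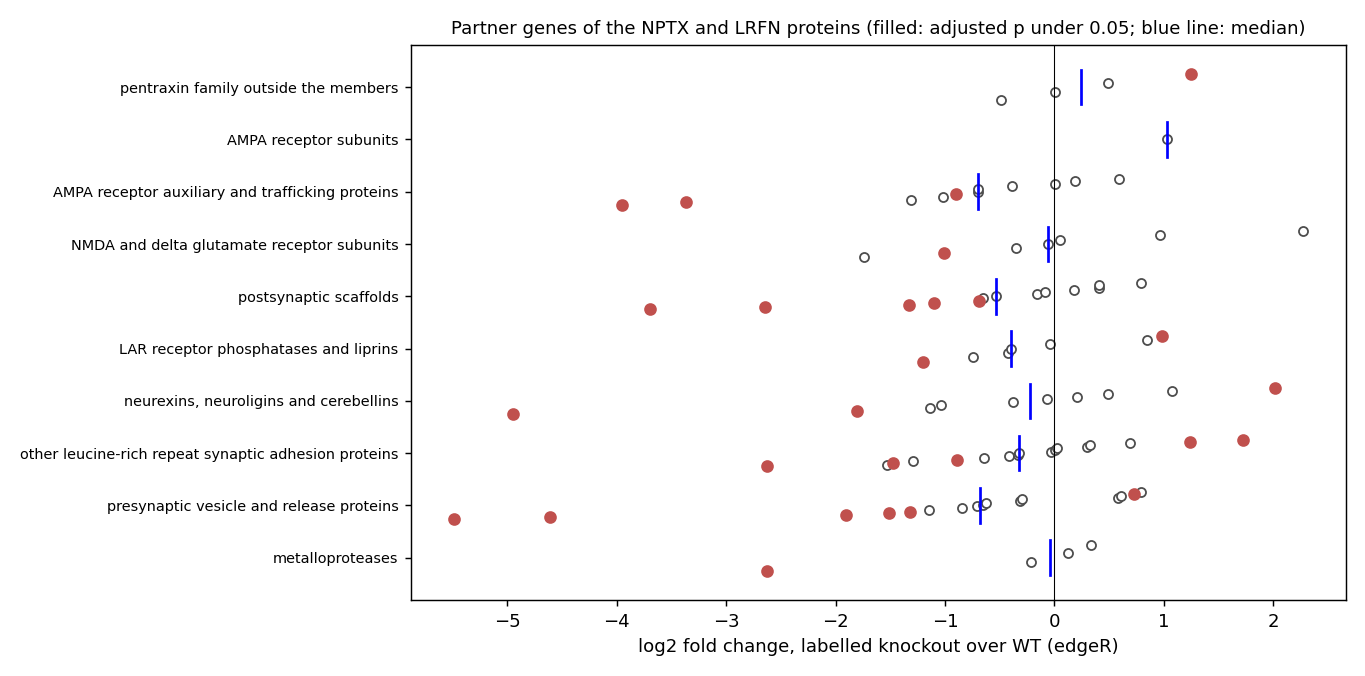
Log2 fold change (horizontal axis, KO-labelled over WT) of the 90 tested partner genes in 10 lists. Filled points passed edgeR at an adjusted p under 0.05 (6 higher, 21 lower), open points did not, and the blue line is the median of a list. The metalloprotease row also holds BACE1 and the row of other leucine-rich repeat proteins also holds IL1RAP, genes outside those classes.

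The genes with the pattern most like NPTX1 over the 6 libraries were found by the smallest Euclidean distance between log2 CPM profiles (prior count 2), each centred on its own mean. They were HAAO, an enzyme of tryptophan breakdown (distance 0.494), SPOCK3, a proteoglycan gene (0.50), and the noncoding FLJ36000 (0.544). HAAO had no count in WT and 29, 55 and 41 counts in KO-labelled replicates 1 to 3. For LRFN5 the nearest were PARP9 (0.590), the noncoding LINC02506 (0.612) and GALC, a lysosomal galactosylceramidase (0.696), each with no count in WT. PARP9 was at 11.8, 8.80 and 9.80 CPM in KO-labelled replicates 1 to 3. The prior count compresses profiles that start at 0, so distances between low genes depend on it.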

How the data were processed

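Gene counts of 6 poly(A)-selected HEK-293T libraries were analysed. The submitters' processing notes name HISAT2 2.2.1 and HTSeq 0.12.4 with GRCh38, while counting options were not given in the sources used here. Deposited tables hold whole-number counts per gene, not normalised. Reads in no gene (8.75% to 15.9%) and ambiguous reads (9.74% to 12.5%) were left out. The deposited mitochondrial coverage was not used. Counts were tested with edgeR 4.0.16 (R 4.3.3): filterByExpr defaults, TMM scaling, the quasi-likelihood test on group alone, Benjamini-Hochberg adjustment over 17452 genes at 0.05. The fit was tested on simulated data, where it missed most of the smaller changes, so a gene that did not pass may still differ. Symbols came from a gene name table and positions from RefSeq; a symbol with 2 identifiers was read from the one with more counts.

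Partner genes named are up to 3 called members per list and direction with the lowest p, or the highest expressed member; neighbours are the 3 nearest tested genes on each side, by midpoint. A few others (DLG4, PTPRS, PTPRF, ADAM17, GRIA1 to GRIA3, SNAP25, MAP2 and others marked so) were named after their values were seen, and some partner genes are not reported here by name. Alternatives were DESeq2 1.42.0, limma-voom (limma 3.58.1), other scalings and filters, a prior count of 0.5, leaving out each library, and the replicate number as a block. Members, lists and tests were chosen with earlier results of these data known.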

Additional observations from a re-analysis of the deposited data

How the results depend on the processing

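NPTX1 kept its direction in each alternative run, with a log2 fold change from 4.66 to 4.81. The LRFN5 bound ranged from 135-fold to 233-fold over libraries left out; it is lowest without a WT library, since the limit of 3 counts then rests on fewer WT reads. The number of genes called ranged from 401 to 4048 (higher) and from 243 to 3927 (lower) over libraries left out. Of the tested relatives 1 was called by DESeq2, and 0 to 1 over libraries left out. Partner genes called ranged from 1 to 14 (higher) and from 10 to 41 (lower), and the 12 neighbours called from 1 to 8. The cause of these shifts was not tested. Of 42 other genes, examined under each alternative except GRIA4 under the strict filter, which removed it, none that was called reversed; 14 lost their call with the replicate block, 18 or 19 without 1 WT library and 13 without KO-labelled replicate 3. With library totals in place of TMM 5 lost it. The 42 include genes not called in the main fit, among them the tested relatives, GRIA4, ENDOV and CHMP6. These could not lose a call, so the shares lost among the called genes were larger than the shares of 42.

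Same-numbered libraries showed no sign of pairing: they deviated from their group means with correlations of -0.0585, -0.0289 and 0.00216. KO-labelled replicate 1, which stood apart, weighs on every deviation in its group, so a weak pairing could be missed. With the replicate number as a block 610 genes were called higher and 359 lower, 2 and 12 partner genes, and 3 neighbours. LRFN2, with 17 WT counts and 2 KO-labelled counts, is limited by depth.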
